A study of Mus musculus with 3 samples.

Results

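Interferon-stimulated genes are genes whose transcription rises in cells that have met an interferon. The 33 mouse genes described here were taken as a list of symbols, of the 31053 genes in the count matrices, by name and with no threshold on a measured value, but the list was drawn up with earlier results of these data known, so its counts are a description and not independent evidence. All 33 had at least 1 UMI (unique molecular identifier, which marks 1 captured RNA molecule) in the kept cells of every library. They were followed through single cells of the iridocorneal angle and corneal limbus of the mouse eye, the ring of tissue by which aqueous humor leaves the eye, first through the trabecular meshwork (TM) and then through the vessel called Schlemm's canal (SC). The study compared control mice (*Angpt1* flox/flox) with *Angpt1*ΔNC mice (*Angpt1* flox/flox;Wnt1Cre+), in which Cre under the *Wnt1* driver deletes the angiopoietin *Angpt1* in cells of the neural crest lineage. Both genotypes carried the floxed allele, were 6 weeks old, and came from lines crossed for 2 generations to outbred albino ICR mice.

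There were 2 control libraries and 1 *Angpt1*ΔNC library. Each was a pool of 4 to 6 eyes of 2 to 3 mice, with retina, iris and much of the conjunctiva removed before dissociation, so that a library is a pool and not an animal. The cells kept by the authors numbered 9076 and 10160 in the controls and 6772 in *Angpt1*ΔNC, with 66484181 to 80346829 UMIs per library and median depths of 6329.5, 6393.5 and 7444 UMIs per cell. *Angpt1* stood at 37.8 and 39.3 CPM (a gene's UMIs per 1000000 UMIs of the same cells) in the controls and at 0.391 in *Angpt1*ΔNC. *Xist*, the RNA of the inactive X chromosome, stood at 0.0390 and 0.0249 in the controls and at 652 in *Angpt1*ΔNC. By this RNA the genotypes also differed in the sex of the pooled animals, although the paper describes its pools as mixed in sex. Cells with UMIs of Y-linked genes and none of *Xist* were typed as male. Their values are given beside members that lose a call in them, except in the monocyte and dendritic cells. Calls gained in male-typed cells are only counted. Between 13 and 25 cell barcodes were shared by any pair of libraries.

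Interferons are secreted when a cell senses foreign or misplaced nucleic acid. Type I interferons bind the IFNAR1 and IFNAR2 chains and act through JAK kinases and a complex that holds STAT2 and IRF9 and binds the interferon-stimulated response element (ISRE), while interferon-γ binds IFNGR1 and IFNGR2 and acts at another DNA element, the GAS site. The genes that follow include sensors, antiviral effectors and feedback inhibitors, and blood vessel endothelium is known as a tissue that holds some of them at a basal level.

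The ISRE is what many of the genes are known to share, and the promoter windows of 6 members that carry results below and hold a match are shown for it. RefSeq windows (GRCm38.p6, from 250 bases before each gene's start to 50 after it) matched 25 of the 33 members by symbol. The ISRE core (GAAA, any 2 bases, GAAA), searched on both strands and with overlaps counted, was found in 17 of these 25 (68.0%), and in 1079 of all 27025 genes with a window (3.99%). Members that carry results below but hold no match in their windows include *Ifit2*, *Oasl1*, *Oasl2* and *Ifi44*. The core of the GAS site (TTC, any 3 bases, GAA) was found in 6 of the 25 (24%) and in 9.55% of all genes. In the lines below, read 5′ to 3′ on the gene's own strand, capitals mark the letters of the ISRE core or of its reverse complement.
Ifit1 (chr19:34640689-34640870, plus strand): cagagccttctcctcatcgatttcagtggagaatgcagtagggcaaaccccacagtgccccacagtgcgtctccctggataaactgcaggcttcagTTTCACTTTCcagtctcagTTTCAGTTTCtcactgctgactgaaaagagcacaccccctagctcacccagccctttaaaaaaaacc
Ifit3 (chr19:34583329-34583528, plus strand): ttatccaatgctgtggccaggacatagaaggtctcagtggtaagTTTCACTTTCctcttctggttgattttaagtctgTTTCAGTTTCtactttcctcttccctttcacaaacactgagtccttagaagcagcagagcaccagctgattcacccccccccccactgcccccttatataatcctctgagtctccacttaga
Ifit3b (chr19:34607757-34607956, plus strand): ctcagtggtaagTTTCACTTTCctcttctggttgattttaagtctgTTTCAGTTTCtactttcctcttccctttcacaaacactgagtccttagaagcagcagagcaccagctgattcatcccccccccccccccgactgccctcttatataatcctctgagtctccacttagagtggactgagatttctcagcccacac
Isg15 (chr4:156200819-156201018, minus strand): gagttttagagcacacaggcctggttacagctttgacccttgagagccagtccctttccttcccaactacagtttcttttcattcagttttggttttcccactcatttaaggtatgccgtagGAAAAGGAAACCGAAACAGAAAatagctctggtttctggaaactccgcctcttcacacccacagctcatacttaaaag
Rsad2 (chr12:26456453-26456652, minus strand): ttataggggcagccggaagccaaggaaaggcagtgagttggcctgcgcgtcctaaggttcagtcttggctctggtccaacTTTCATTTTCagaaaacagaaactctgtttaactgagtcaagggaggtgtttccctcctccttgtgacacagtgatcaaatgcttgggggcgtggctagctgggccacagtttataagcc
Gbp2b (chr3:142594647-142594846, plus strand): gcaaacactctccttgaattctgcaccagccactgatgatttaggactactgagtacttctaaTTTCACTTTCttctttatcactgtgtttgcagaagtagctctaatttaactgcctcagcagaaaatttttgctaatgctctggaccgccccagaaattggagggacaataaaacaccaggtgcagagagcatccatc
*Ifit1*, *Ifit3* and *Ifit3b* each hold 2 matches in these stretches, *Isg15* holds 3 that overlap each other, and *Rsad2* and *Gbp2b* hold 1 each. The match nearest to the start lies 85 bases upstream in *Ifit1*, 66 in *Isg15*, 120 in *Rsad2* and 137 in *Gbp2b*. *Ifit3* and *Ifit3b* are neighbours whose windows are the same at 258 of 260 aligned bases (99.2%), so both genes show the same pair of matches. The windows of *Gbp2b* and its neighbour *Gbp2* agree at 134 of 211 aligned bases (63.5%).

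Levels are given in CPM. They are compared between groups of cells and not between genes, and cells were grouped by the cluster labels that the authors deposited. Over all kept cells the 33 genes together took 3186 and 2518 CPM in the controls and 3142 in *Angpt1*ΔNC, which lies between the controls. Control 1 stood above control 2 in 31 of the 35 labels, by 1.01-fold in EC4 and 1.02-fold in EC2 but 3.88-fold in TM1 and 3.74-fold in label 5, and below it in the other 4, so the gap between the control pools depended on the label.

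In the controls, blood vessel and SC endothelium and the labels TM7 to TM9 held the most of this RNA. The TM labels are the authors' names for a reclustered set of cells, not all of it trabecular meshwork. The paper interprets TM6 to TM9 as uveal cells, with a possible link to the meshwork for TM7. The sum of the 33 genes was 9804 and 9635 CPM in EC2, 11501 and 7451 in SC endothelium, and 9042 and 8940.0 in EC4. TM8, TM9 and TM7 followed at 9405 and 7356, 9099 and 7303, and 7701 and 6145, so these labels overlap with the endothelial ones across the pools. TM4 and TM5, the putative trabecular meshwork or juxtacanalicular cells of the paper, stood lower, at 1406 and 1249, and 1162 and 572. By the mean of the controls, the lowest sums were 473 and 423 in limbal epithelium (label 4) and 713 and 694 in smooth muscle (label 19).

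Over the 33 labels with at least 30 cells in each control, 20 of 33 members had their highest level in the same label in both controls. Averaged over the controls, EC4 was the highest label for 8 members, EC2 and SC for 6 each, TM8, TM9 and the monocyte label 25 for 3 each, and label 10 for 2. *Trim30a*, a RING-type TRIM protein, had 256 and 203 CPM in EC2 against a median of 2.33 over the labels. *Rsad2*, which encodes the antiviral enzyme viperin, had 458 and 409 in EC4 against a median of 13.4. *Ifit1*, an RNA-binding inhibitor of viral translation, was highest in TM9 at 1118 and 1070.2, and *Ifi27l2a* in label 25 at 1169 and 889.

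**Figure D1:**
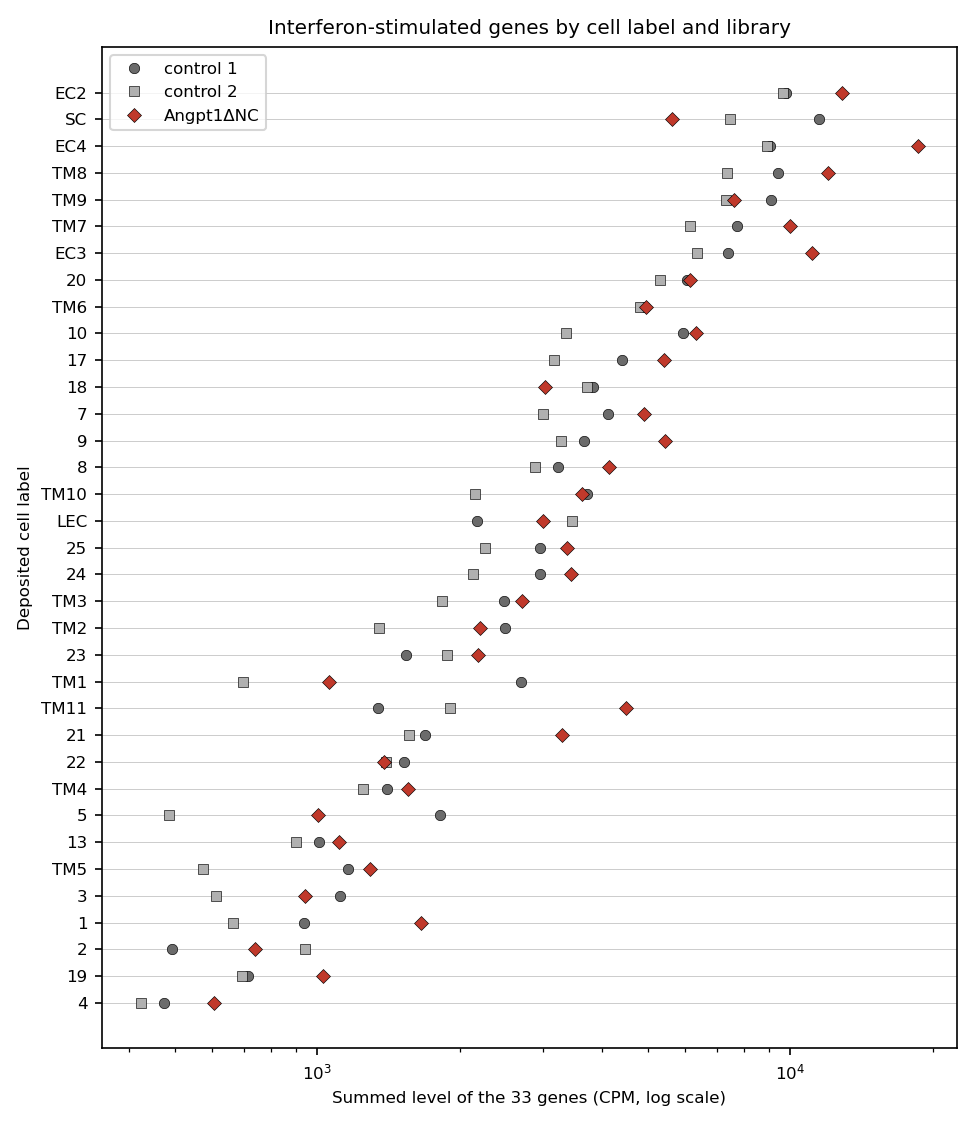
Sum of the 33 interferon-stimulated genes in CPM (horizontal log axis) for each of the 35 deposited labels (vertical axis), with 1 point per library. *Angpt1*ΔNC lies above both controls in EC4 (18638 against 9042 and 8940.0) and EC3, and below both in SC, where it rests on 15 cells.

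*Angpt1*ΔNC stood above both controls in 24 of the 35 labels, between them in 8 and below both in 3. The 3 were SC, label 18 and label 22 (B and T cells). The sum in EC4 was 18638 against 9042 and 8940.0, and in EC3 it was 11130.1 against 7387 and 6347. In SC it was 5615 against 11501 and 7451, but the *Angpt1*ΔNC library held 15 SC cells, against 46 and 63 in the controls, and no fit was made there.

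For tests, UMIs were summed per library over 5 classes of labels, and *Angpt1*ΔNC was compared with the controls by edgeR's quasi-likelihood test over all genes of the class that passed a filter on low counts, with Benjamini-Hochberg adjustment and a call at an adjusted p under 0.05. Its spread comes from the pair of controls (1 residual degree of freedom), with each gene's estimate drawn toward a trend over all genes tested. The lone *Angpt1*ΔNC library is assumed to vary as the controls do, and a gene could pass the filter through that library alone. The p-values therefore rest on the spread between the control pools, shared over genes, and hold no measure of spread among *Angpt1*ΔNC pools.

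In the endothelium (labels SC, LEC and EC2 to EC4, with 295, 327 and 209 cells), 22 of the 31 tested members rose in *Angpt1*ΔNC and 1, *Gbp2*, fell. Of the 9660 genes tested there, 8.12% were called higher and 4.82% lower, and the median log2 fold change was 0.84 over the tested members and -0.02 over all genes tested. All 23 called members lay outside both controls. *Angpt1*ΔNC was above both controls for 26 of the 31 members and below both for 2, against 27.7% and 54.1% of all tested genes. The sum was 8894 and 7507 in the controls and 13339 in *Angpt1*ΔNC.

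All 4 members of the IFIT family, whose proteins bind viral RNA, rose in the endothelium. *Ifit3* had 164 and 172 CPM in the controls and 751 in *Angpt1*ΔNC, a log2 fold change of 2.32 ± 0.15 (SE, edgeR adjusted p = 3.9e-14). *Ifit2* had 57.9 and 46.6 against 204, a log2 fold change of 2.14. *Ifit1* had 287 and 252 against 909, and changed by 1.92 ± 0.15 on the log2 scale (edgeR adjusted p = 6.3e-12). For these 3 the controls lay close together, well below *Angpt1*ΔNC. For *Ifit3b* they did not, at 215 and 87.6 against 294, and its log2 fold change of 1.15 became 1.91 when control 1 was left out.

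The 2'-5'-oligoadenylate synthetase group makes the signal that switches on RNase L, and its OASL members act in antiviral defence by other routes. *Oasl1* stood at 183 and 168 CPM against 355 in *Angpt1*ΔNC (log2 fold change 1.19), and *Oasl2* at 212 and 194 against 371 (1.04). *Oas1a* had 3 and 1 UMIs in the control endothelium and 42 in *Angpt1*ΔNC, and passed the filter on low counts through *Angpt1*ΔNC alone. Its log2 fold change of 5.08 moved to 6.08 without control 1 and 4.40 without control 2. Of the 50-base stretches in the last 500 bases of its transcript, 56.1% are shared with *Oas1g*, so the counts of both genes may be affected. *Oas2* had 0, 0 and 6 UMIs in these cells and *Oas3* had none, and neither was tested.

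*Isg15*, a ubiquitin-like modifier, had 2114 and 1696 CPM in the control endothelium and 3037 in *Angpt1*ΔNC (log2 fold change 0.84 ± 0.15, edgeR adjusted p = 7.5e-05). *Usp18*, the protease that removes ISG15 and damps the type I receptor, rose from 57.9 and 42.3 to 132 (1.57). Both lay above the 2 controls, by more for *Usp18* than for *Isg15*.

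Among the effectors, *Rsad2* stood at 371 and 235 CPM in the control endothelium and 1094 in *Angpt1*ΔNC, a log2 fold change of 2.03 ± 0.17 (edgeR adjusted p = 4.1e-11). *Bst2*, which tethers budding virus at the cell surface, had 575 and 452 against 699 (0.62, and 0.42 with no call in male-typed cells), and *Trim30a* had 139 and 109 against 254 (1.21). *Parp14*, an ADP-ribosyltransferase, had 460.4 and 425 against 496 and did not pass (0.33). The control pools differed more for *Rsad2* and *Bst2* than for *Parp14*.

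The guanylate-binding proteins (GBPs) are interferon-induced GTPases that act on vacuoles holding pathogens. *Gbp2b* was near its floor in the control endothelium, at 8.60 and 5.53 CPM, and stood at 263 in *Angpt1*ΔNC (log2 fold change 5.40 ± 0.22, edgeR adjusted p = 3.4e-20). *Gbp3* had 227 and 193 against 452 (1.27), and *Gbp5*, which promotes inflammasome assembly, had 158 and 173 against 317 (1.10). *Gbp5* dropped out of the calls in male-typed cells, with a log2 fold change of 0.46. *Gbp7* had 338 and 308 against 348 and did not pass. *Gbp2* went the other way, at 931 and 964 against 589, and fell by 0.52 on the log2 scale (edgeR adjusted p = 0.0228).

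Of the 4 sensors 3 rose, and of the 3 factors 1 did. *Ifih1*, which encodes the double-stranded RNA sensor MDA5, rose from 102 and 79.1 to 152 CPM (log2 fold change 0.91), *Dhx58*, the LGP2 regulator of these sensors, from 31.7 and 28.3 to 47.4 (0.83), and *Zbp1*, a sensor of Z-form nucleic acid, from 52.8 and 43.3 to 73.0 (0.78). *Ddx58*, the sensor RIG-I, had 137 and 111 against 153 and missed the threshold (edgeR adjusted p = 0.054). *Irf7*, the factor that amplifies interferon production, rose from 294 and 199 to 327 (0.58), a gap to control 1 that is smaller than the gap between the controls. *Irf9* stood at 176 and 160 against 136, and *Stat2* at 142 and 129 against 136, and neither was called in any class.

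Of the remaining 6 members, 3 rose in the endothelium. *Ifi44* had 90.0 and 90.5 CPM against 216 (log2 fold change 1.43), *Rtp4*, a receptor-transporting protein, had 419 and 362 against 559 (0.69), and *Xaf1*, which binds the apoptosis inhibitor XIAP, had 216 and 165 against 258 (0.61). *Ifi27*, *Ifi27l2a* and *Ifi35* did not pass. *Ifi27l2a* showed the widest gap between the control pools, 142 and 22.5, with *Angpt1*ΔNC at 38.7 between them.

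**Figure D2:**
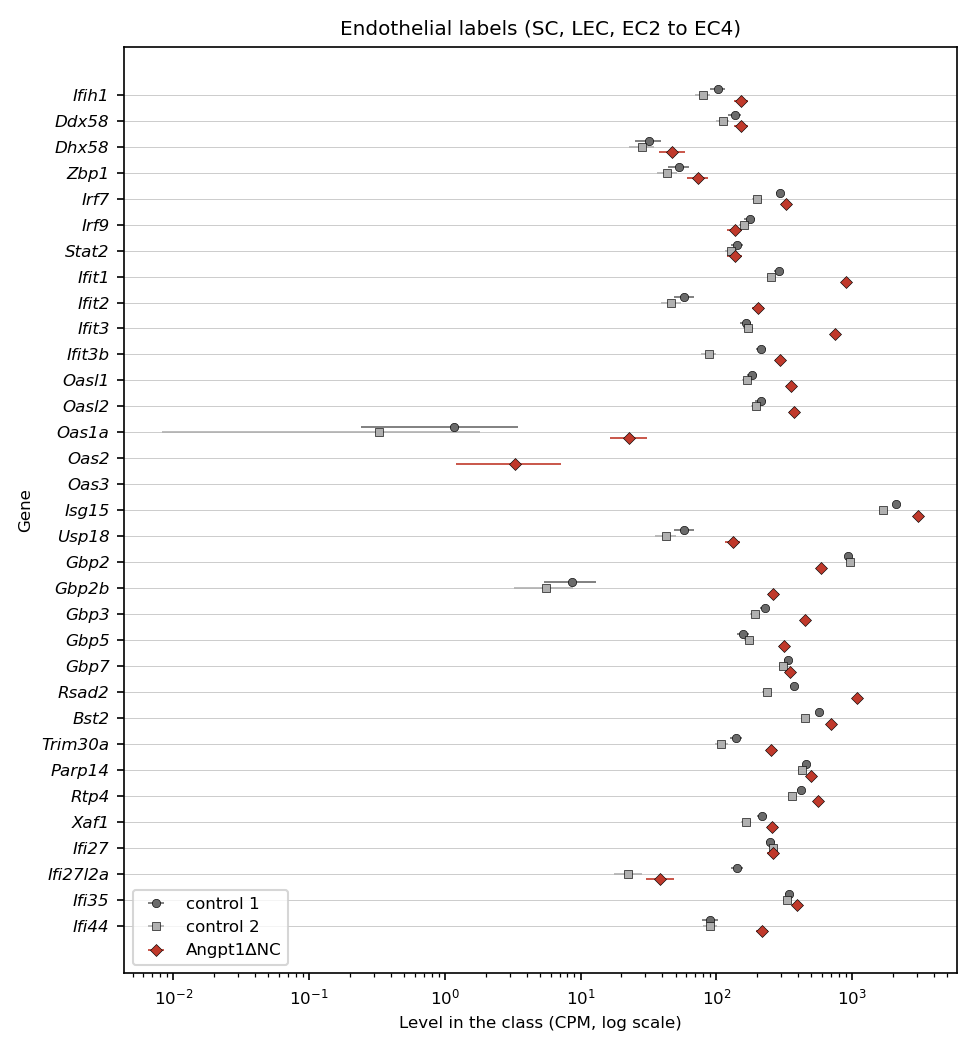
Level of each member (vertical axis) in the endothelium in CPM (horizontal log axis), with 1 point per library, 95% Poisson intervals that cover counting error only, and no point where a library had 0 UMIs. For *Ifit1*, *Ifit2*, *Ifit3*, *Rsad2* and *Gbp2b* the *Angpt1*ΔNC point lies well above both controls, and *Gbp2* is the called member whose *Angpt1*ΔNC point (589) lies below both (931 and 964).

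Endothelial markers summed to 7925 and 8370 CPM in the controls and 8025 in *Angpt1*ΔNC, with all 5 of them detected. Within this sum *Emcn* lay below both controls (1645 and 1616 against 796). *Cdh5* (1406 and 1414 against 1806), *Pecam1* and *Egfl7* lay above both, and *Cldn5* between. The label mix moved too, with 46, 63 and 15 cells in SC and 96, 107 and 87 in EC4. With each label scaled to its mean UMI share over the libraries (equal label mix, without LEC), 20 of the 23 called members kept their call. The median log2 fold change over the tested members was then 0.74. Leukocyte markers were at 74.3, 18.9 and 42.5, so *Angpt1*ΔNC lay between the controls. Other lists moved with the members. Stromal markers were at 48.1 and 66.1 in the controls and 150 in *Angpt1*ΔNC (all 5 detected), and monocyte or macrophage markers at 26.6 and 13.0 against 41.4 (all 6 detected). Pericyte markers were lower, at 157 and 87.2 against 55.6. The plasmacytoid dendritic list stood at 1331 and 1264 against 2164, nearly all of it *Bst2*, itself a member, and *Tcf4* (757 and 813 against 1461), while *Siglech* and *Ccr9* were at 0 in both controls and at 2.73 and 1.64 in *Angpt1*ΔNC. The part of the stromal, macrophage and pericyte RNA in the members' values was not tested. Without the cells that held a leukocyte marker UMI, 22 of 31 members were called, 21 higher and 1 lower. In male-typed cells alone 19 rose and 2 fell, and the summed level was 14289 CPM in the 66 male-typed and 12858 in the 122 *Xist*-typed endothelial cells of *Angpt1*ΔNC, both above the 8894 and 7507 of the controls. DESeq2 called 14 members, all of them higher.

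The change was present in each of the 3 blood vessel labels when they were fitted alone. Of the tested members, 10 of 29 were called in EC2, 17 of 30 in EC3 and 17 of 31 in EC4, all of them higher, where 5.36%, 7.30% and 2.95% of all tested genes were called in either direction. *Gbp2b*, *Gbp3*, *Ifit1*, *Ifit2*, *Ifit3*, *Rsad2* and *Ifi44* were called in all 3. These labels share a genotype and a library, so they are not separate animals.

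In EC4, *Ifit1* had 387 and 494 CPM in the controls and 1595 in *Angpt1*ΔNC, *Rsad2* had 458 and 409 against 2059.6, and *Isg15* had 2339 and 2249 against 4399.6. In EC3, *Ifit1* had 128 and 121 against 552, *Rsad2* had 360.0 and 244 against 628, and *Isg15* had 1669 and 1429 against 2401. In EC2 the same genes stood at 289.6 and 370.0 against 572, 314 and 292 against 594, and 2602 and 2265 against 2746. In every one of these 9 settings *Angpt1*ΔNC lay above both controls, and the log2 fold change of *Rsad2* was 2.42 in EC4, 1.20 in EC3 and 1.06 in EC2.

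Over the pooled endothelium more cells held these RNAs. *Ifit1* had a UMI in 55.6% and 52.3% of control endothelial cells and 78.0% of those of *Angpt1*ΔNC, *Rsad2* in 51.2% and 38.5% against 74.2%, and *Gbp2b* in 7.46% and 5.20% against 58.4%. The labels were uneven. EC4 held 1160 of the 1667 *Ifit1* UMIs and 1498 of the 2008 *Rsad2* UMIs of the *Angpt1*ΔNC endothelium, and in EC2 the share of cells with *Ifit1* was 59.4% and 68.4% in the controls and 67.6% in *Angpt1*ΔNC. To compare cells at equal depth, each was thinned to 2000 UMIs (shallower cells left out), and a cell was counted when it held at least 3 of 19 type I core members. That share was 75.7% (exact 95% interval 70.2 to 80.7) and 67.8% (62.3 to 73.0) in the control endothelium and 89.4% (84.2 to 93.3) in *Angpt1*ΔNC. It was 90.8%, 88.1% and 95.2% without thinning. Intervals cover counting error only.

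**Figure D3:**
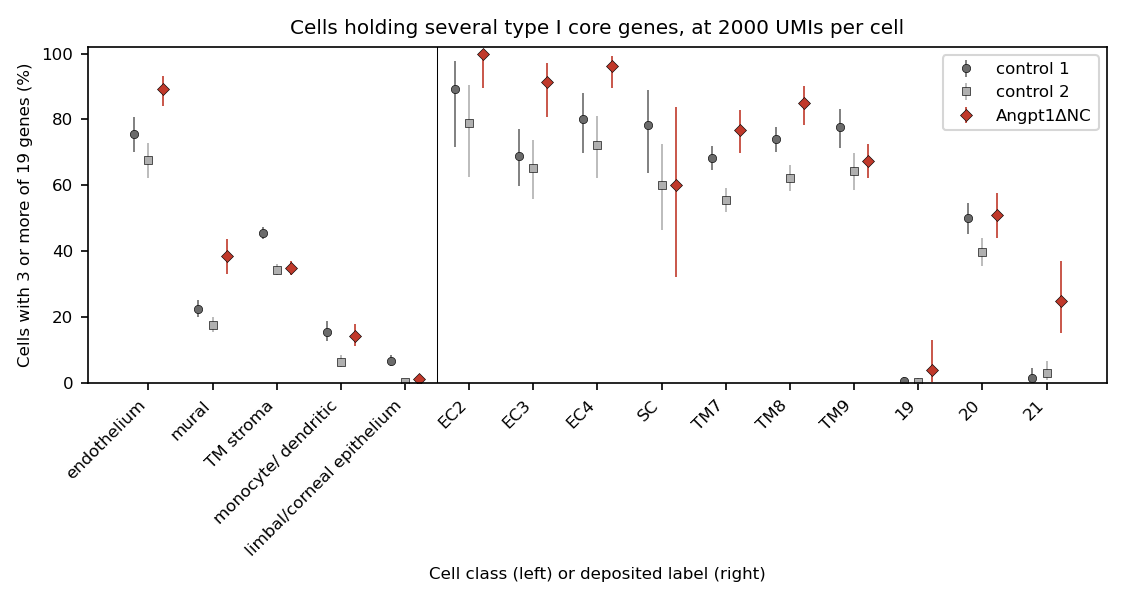
Percent of cells with at least 3 of 19 type I core members after thinning to 2000 UMIs (vertical axis) by class and label, with 1 point per library and exact 95% binomial intervals that cover counting error only. In EC4 the share is 80.0% and 72.3% in the controls and 96.3% in *Angpt1*ΔNC, and in the limbal and corneal epithelium it is 6.83%, 0.298% and 1.21%.

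The limbal epithelium of label 4, which had the lowest summed level in the controls, is given for comparison. There the same share was 0.735% in control 1 and 0.628% in *Angpt1*ΔNC at the same thinned depth. In control 2 it was 0 of 505 cells, which allows a share of up to 0.594%. Label 4 cells were deeper before thinning (median 14480.5 UMIs in control 1, against 4736 in EC4). Their share is therefore not a measure of background RNA in the endothelium. In EC4 the share was 80.0% and 72.3% against 96.3%, and in EC3 69.0% and 65.3% against 91.2%. SC cells stood at 78.3% and 60.0%, with 9 of 15 cells (60.0%, interval 32.3 to 83.7) in *Angpt1*ΔNC, an interval that holds both controls.

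In the class called mural cells (labels 19 to 21, with 1036, 1185 and 345 cells), 15 of 29 tested members rose and none fell. The paper reads these labels as smooth muscle, pericytes and vascular smooth muscle, and does not call label 19 vascular. Of the 11606 genes tested, 9.12% were called higher and 7.23% lower, and the median log2 fold change was 0.80 over the members and -0.05 over all genes. *Angpt1*ΔNC lay above both controls for 22 members and below both for 3, against 29.3% and 57.6% of all genes. The called members were *Ddx58*, *Dhx58*, *Irf7*, *Ifit1*, *Ifit3*, *Oasl2*, *Isg15*, *Gbp2b*, *Gbp3*, *Gbp7*, *Rtp4*, *Xaf1*, *Ifi27*, *Ifi35* and *Ifi44*. With equal label mix, each label held at its mean UMI share in every library, 4 rose (*Ifit3*, *Isg15*, *Gbp2b* and *Gbp3*) and 1 fell (*Ifit3b*). The count thus depended on the mix of labels. In male-typed cells *Ddx58* (log2 fold change 0.91), *Dhx58* (1.14), *Gbp7* (0.68) and *Ifi44* (1.99) were not called.

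*Isg15* had 926 and 758 CPM in control mural cells and 1664 in *Angpt1*ΔNC (log2 fold change 1.18, and 0.49 with equal label mix). *Ifit3* had 88.4 and 90.8 against 189.9 (1.28 and 0.64), and *Ifit1* had 92.6 and 77.0 against 158 (1.09 and 0.47). *Gbp2b* had 1.91 and 1.74 against 89.0 (5.79 and 5.25), and *Gbp3* had 35.6 and 31.4 against 84.8 (1.54). *Angpt1*ΔNC lay above both controls for each of them. *Rtp4*, at 169 and 141 against 299, and *Ifi35*, which forms a complex with the STAT-binding protein NMI, at 135 and 118 against 211, were called in the summed cells and not with the equal mix.

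Markers moved with the mural class. Smooth muscle markers summed to 19076 and 18441 CPM in the controls and 10029 in *Angpt1*ΔNC, pericyte markers to 4537 and 4637 against 6603, and immediate-early and heat shock (stress) genes to 11811 and 11105 against 6600. Leukocyte markers were at 8.80 and 8.37 against 19.1. Label 19 (smooth muscle) held 387, 499 and 54 cells and label 20 (pericytes) 461, 512 and 222. Beyond the equal mix and the fits by label, the part of these differences in the members' values was not tested.

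Fitted alone, label 21 (vascular smooth muscle) had 8 of 20 tested members higher and none lower, with 8.21% of all genes called. *Ifit1* stood there at 18.2 and 10.1 CPM against 134 (log2 fold change 3.30), *Isg15* at 612 and 532 against 1468 (1.45), and *Rtp4* rose by 2.95 on the log2 scale. The share of label 21 cells with at least 3 core members was 1.62% (interval 0.336 to 4.67) and 2.96% (0.967 to 6.77) in the controls and 25.0% (15.3 to 37.0) in *Angpt1*ΔNC. Label 20, where 7.67% of all genes were called, had 2 members higher (*Gbp2b* and *Gbp3*) and 2 lower (*Ifih1* and *Ifit3b*), and label 19, with 0.966% called, had *Gbp2* higher and *Bst2* lower.

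In the class called TM stroma (labels TM1 to TM11, with 2803, 3324 and 1946 cells) the members moved in both directions. This class pools trabecular with other cells, and values "in the TM" refer to the whole class. The paper reads TM1 as keratinocytes, TM2 as corneal endothelium and TM6 to TM9 as uveal cells, and proposes corneal stroma for TM10. In TM1, however, the stromal markers summed higher than in any other label, and the epithelial markers far below labels 4 and 5. *Ifit3*, *Gbp2b*, *Gbp3* and *Ifi44* rose, and *Ifih1*, *Oasl1*, *Gbp2* and *Parp14* fell, out of 31 tested. There 3.46% of 13942 genes were called higher and 5.52% lower, and the median log2 fold change of the members was -0.04, against -0.01 over all genes. *Angpt1*ΔNC lay above both controls for 10 members and below both for 11, as 39.0% and 40.8% of all tested genes did. The summed level was 4858 and 3506 in the controls and 4082 in *Angpt1*ΔNC, and for 30 of the 31 members control 1 stood above control 2. Leukocyte markers were at 10.4 and 11.3 against 18.9 and pericyte markers at 436 and 329 against 51.1, and the part of the pericyte RNA in the members' values was not tested.

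*Ifit3* had 155 and 118 CPM in the control TM and 315 in *Angpt1*ΔNC (log2 fold change 1.21, edgeR adjusted p = 0.00326), and *Gbp2b* had 5.25 and 3.15 against 57.4 (3.80). *Gbp3* stood at 36.5 and 29.9 against 52.0 (0.66), and *Ifi44* at 6.51 and 3.98 against 11.2 (1.12). In male-typed cells the log2 fold change of *Ifit3* was 0.46, of *Gbp3* 0.04 and of *Ifi44* 0.45, and none of the 3 was called. *Gbp2b* still rose there, by 3.30.

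*Gbp2* fell in the TM from 381 and 334 to 176 CPM (log2 fold change -1.02, edgeR adjusted p = 0.00574), and *Ifih1* from 64.9 and 49.0 to 27.9 (-1.02). *Oasl1* had 25.8 and 15.9 against 8.02 (-1.36), and *Parp14* 131 and 103 against 68.7 (-0.76). *Ifih1*, *Oasl1* and *Parp14* were not called with equal label mix, which left 6 members higher and 1 lower, while male-typed cells gave 2 higher and 9 lower. *Isg15*, at 1405 and 942 against 912, and *Ifit1*, at 482 and 412 against 509, did not pass.

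Labels inside the TM class went different ways. In TM7 10 of 29 tested members were called (5.07% of all genes), and in TM8 6 of 29 (3.58%), all of them higher. In TM9, where 15.1% of all genes were called, 4 members were higher and 6 lower, and 5 of the 6 lay below both controls. Their sums were 7701 and 6145 against 9977, 9405 and 7356 against 11996, and 9099 and 7303 against 7603. The mix of labels moved as well: TM9 had 204 and 298 control cells against 327 of *Angpt1*ΔNC, TM7 had 667 and 739 against 174, and TM8 had 591 and 612 against 155.

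In TM1 the controls lay farther from each other than *Angpt1*ΔNC from control 2. Its 9 called members, where 4.79% of all genes were called, were all lower, but 1 of the 9 lay below both controls. *Irf7* had 189 and 8.96 CPM in the TM1 controls and 14.7 in *Angpt1*ΔNC, and *Isg15* had 225 and 29.1 against 33.8. In the small label TM11 (27, 46 and 49 cells) *Ifit1* stood at 34.3 and 155 against 824, with no fit made because control 1 held under 30 cells.

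The limbal and corneal epithelium (labels 4 and 5, with 989, 1012 and 911 cells) held little of this RNA, and the controls differed from each other by more than the genotypes did. The sum was 1411 and 463 CPM in the controls and 770 in *Angpt1*ΔNC, with control 1 above control 2 for all 31 tested members. *Gbp2b* rose, from 0.305 and 0.169 to 14.6 (log2 fold change 5.99, edgeR adjusted p = 0.00023), and *Oasl1* fell, from 28.1 and 19.4 to 9.69 (-1.18), where 2.81% of 12341 genes were called higher and 2.91% lower. *Angpt1*ΔNC lay between the controls for 25 of the 31 members, above both for 4 and below both for 2, against 32.0% and 48.3% of all genes above and below. *Oasl1* was not called with equal label mix (-0.51).

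The gap between the control pools lay in corneal epithelium (label 5). *Irf7* stood there at 160.0 and 5.50 CPM against 23.2 in *Angpt1*ΔNC, *Isg15* at 207 and 30.2 against 60.1, and *Ifi27l2a* at 443 and 35.2 against 152. *Ifi27*, at 183 and 165 against 247, did not share this gap. In label 5 the share of thinned cells with at least 3 core members was 11.2% (interval 8.71 to 14.0) in control 1, 0.596% in control 2 and 2.60% in *Angpt1*ΔNC. In label 4 the sums were 473 and 423 against 604, and 11 of 26 tested members rose there with none lower (11.9% of all genes called).

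In the monocyte and dendritic cells (labels 23 to 25, with 641, 882 and 545 cells), *Ifit3*, *Oas3*, *Gbp2b* and *Ifi27l2a* rose and *Gbp2* fell, out of 32 tested members, where 3.09% of 9883 genes were called higher and 2.45% lower. *Angpt1*ΔNC lay above both controls for 20 members and below both for 5, against 31.9% and 45.3% of all genes. *Ifi27l2a* had 515 and 437 CPM against 834 (log2 fold change 0.88), and *Gbp2* had 53.2 and 61.6 against 29.7 (-0.89, edgeR adjusted p = 0.00338). *Ifit3* had 9.70 and 26.1 against 38.5, and its log2 fold change of 1.13 became 2.03 without control 2. *Oas3*, the largest synthetase of its family, had 1.74 and 2.59 against 8.30, and *Gbp2b* 0.995 and 1.38 against 10.2. With equal numbers of cells edgeR called 0 members, with 11 at an unadjusted p under 0.05, and in male-typed cells it called 0, with 4. *Isg15* (645 and 327 against 569.9), *Bst2* (448 and 319 against 553) and *Oasl1* (139.5 and 65.9 against 170.2) did not pass.

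Outside these classes many members were called in the melanocytes, pigment cells of neural crest origin. Label 8 held 839, 767 and 442 cells and label 9 held 711, 799 and 292, and the sum of *Pmel*, *Mlana*, *Tyrp1* and *Dct* was higher in these labels than in the other 33. In label 9, 19 of 27 tested members were called, 17 higher and 2 lower (12.2% of all genes), and in label 8, 15 of 28, with 11 higher and 4 lower (8.74%). In label 9 *Ifi27l2a* had 47.3 and 32.8 CPM in the controls against 434 in *Angpt1*ΔNC (log2 fold change 3.53), *Ifit3* had 219 and 244 against 688 (1.66), and *Rsad2* had 25.6 and 16.3 against 96.3 (2.30). *Angpt1*ΔNC lay above both controls for each.

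In label 8 the same genes stood at 33.6 and 30.8 against 139.8 (2.15 for *Ifi27l2a*), 163 and 219 against 432 (1.21 for *Ifit3*), and 42.2 and 21.2 against 87.5 (1.50 for *Rsad2*). *Gbp2* and *Stat2* fell in both labels. *Stat2*, a subunit of the factor that binds the ISRE, had 60.4 and 48.8 against 25.4 in label 9 (-1.01) and 40.9 and 38.2 against 19.6 in label 8 (-0.97). *Irf9*, its DNA-binding partner, fell in label 8 from 70.5 and 82.2 to 47.1 (-0.66), where *Parp14* fell too.

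**Figure D4:**
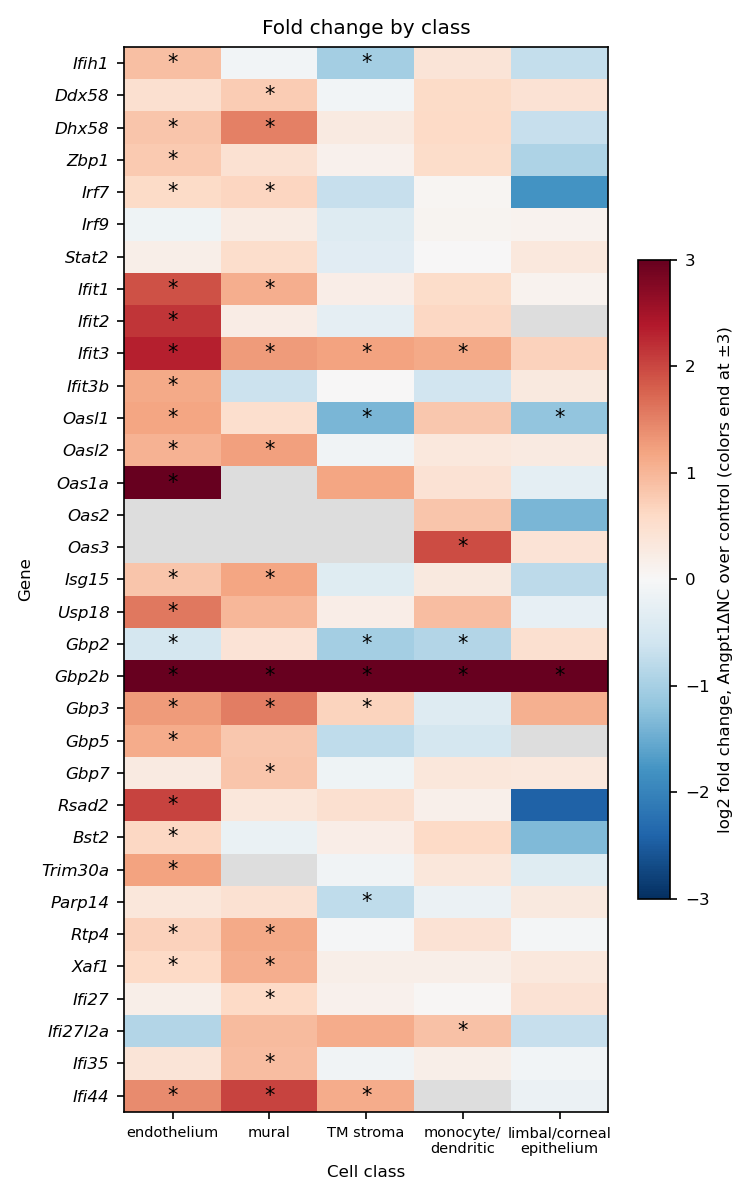
Log2 fold change of *Angpt1*ΔNC over control (color, red for higher and blue for lower, ending at 3 in either direction) for each member (rows) in the 5 classes (columns), with an asterisk on called members and grey where a member was not tested. *Gbp2b* is higher in all 5 classes (3.11 to 5.99), *Gbp2* is lower in 3, and most of the other called members lie in the endothelium and mural columns.

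Over the 5 classes 30 of the 33 members were called at least once, against 25.9% of the 15375 genes tested in any of them, and *Irf9*, *Stat2* and *Oas2* in none. *Gbp2b* was called in all 5, always higher, *Ifit3* in 4, and *Gbp3* and *Ifi44* in 3, while *Gbp2* was called lower in 3. *Gbp2b* had 6 and 3 UMIs in the control epithelium and 4 and 8 in control monocyte and dendritic cells. In these classes it passed the filter on low counts only through *Angpt1*ΔNC (251 and 38 UMIs). *Oasl1* rose in the endothelium and fell in the TM and the epithelium, and *Ifih1* rose in the endothelium and fell in the TM. A joint edgeR fit of the 15 sums tested whether the genotype difference itself varied among the classes. It called 13 of the 33 members, with 10.3% of 14414 genes called in all. *Oasl1* (adjusted p = 0.000139 in this edgeR test) and *Ifit2* (0.000196) came first, followed by *Ifih1* (0.000833) and *Gbp2b* (0.000934). For *Ifit3* no such difference was detected (0.333).

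*Gbp2* and *Gbp2b* are neighbours on chromosome 3 (142620602 to 142638008 and 142594847 to 142619179, GRCm38), and they moved in opposite directions. Of the UMIs of the pair, the second gene, *Gbp2b*, took 0.983% and 0.889% in the kept cells of the controls and 27.7% in *Angpt1*ΔNC. The pair together had 239 and 229.7 CPM in the controls and 209 in *Angpt1*ΔNC. In the endothelium it had 939.9 and 969 against 852, and when the pair was summed before the fit its log2 fold change was 0.00 (edgeR adjusted p = 0.99). In the TM the sum fell by 0.63 on the log2 scale, and in mural cells it rose by 0.82.

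Among the 31 labels with at least 30 cells in each library, *Gbp2b* lay above both controls in 29 and *Gbp2* below both in 20. The share of *Gbp2b* in the pair was 30.9% in the endothelium, 24.6% in the TM, 29.2% in the epithelium, 25.0% in mural cells and 25.5% in monocyte and dendritic cells of *Angpt1*ΔNC, and at most 2.19% in any of these classes of the controls. The share thus rose in classes in which the other members moved in different directions. *Gbp2b* stood at 67.7 CPM in the *Xist*-typed and 46.4 in the male-typed cells of *Angpt1*ΔNC, both above the controls. No 50-base stretch in the last 500 bases of either transcript was found in the other gene.

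**Figure D5:**
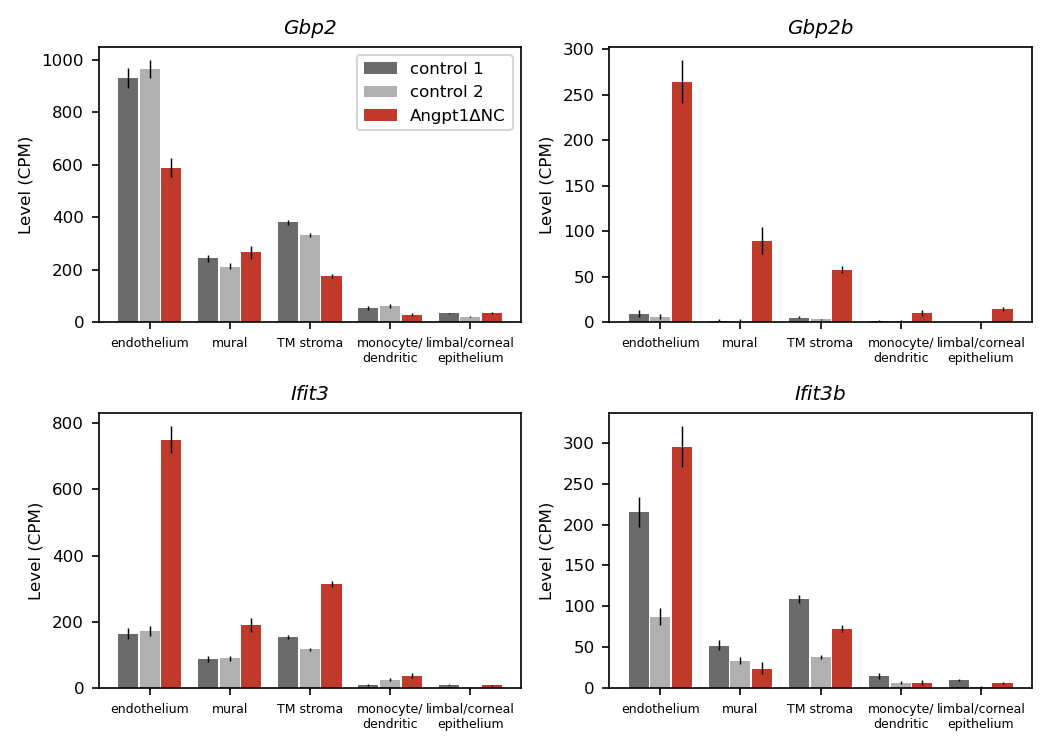
Level in CPM (bars from 0, with 95% Poisson intervals that cover counting error only) of *Gbp2*, *Gbp2b*, *Ifit3* and *Ifit3b* in the 5 classes and 3 libraries. In the endothelium *Gbp2b* stands at 263 in *Angpt1*ΔNC against 8.60 and 5.53 while *Gbp2* stands at 589 against 931 and 964, and the *Ifit3b* bars of the controls differ (215 and 87.6).

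*Ifit3b* took 44.5% and 24.8% of the UMIs of the *Ifit3* and *Ifit3b* pair in the controls and 20.1% in *Angpt1*ΔNC, so the pools also differed within the control genotype. The pair summed rose in the endothelium by 1.88 on the log2 scale. In the last 500 bases of the *Ifit3* transcript 14.9% of the 50-base stretches are shared with *Ifit3b*, and the counts of both genes may be affected. *Ifit3* lay above both controls in 27 of the 31 labels.

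The rest of the pathway was followed with 86 further genes, of which 85 were in the matrices. In the endothelium 22 of the 54 tested rose and 1 fell, where 8.12% and 4.82% of all tested genes were called higher and lower. In mural cells 14 of 55 rose and 6 fell (9.12% and 7.23% of all genes), and in the TM 4 of 60 rose and 11 fell (3.46% and 5.52%). In the epithelium 3 of 56 were called each way (2.81% and 2.91%), and in monocyte and dendritic cells 7 of 62 rose and 1 fell (3.09% and 2.45%). All called genes lay outside both controls. Among negative regulators all 5 tested rose in the endothelium. *Socs1*, an inhibitor of JAK kinases, had 95.4 and 72.3 CPM against 125, *Socs3* had 369 and 357 against 467, and *Nlrc5*, an activator of MHC class I genes, 27.0 and 27.3 against 54.5.

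Of other interferon-stimulated genes, *Isg20*, an exonuclease, rose in the endothelium from 48.1 and 34.5 to 116 CPM (log2 fold change 1.67), and *Cxcl9*, a chemokine that draws T cells, from 54.0 and 60.2 to 182 (1.84). *Cxcl9* fell in the TM, from 57.1 and 63.9 to 34.8, and in mural cells, from 134 and 148 to 62.7. *Irf1*, a factor induced by interferon-γ, fell in the TM (84.5 and 54.2 against 27.4), in mural cells (208 and 172 against 51.4) and in monocyte and dendritic cells (294 and 221 against 85.7). Stress genes lay below both controls in the TM (6033 and 5095 against 4228) and in mural cells, and so moved with the falls there. They were also below both in the epithelium (4862 and 4392 against 2689). In monocyte and dendritic cells, where *Irf1* fell too, they lay between the controls (10480 and 6879 against 7565). The part of the stress genes in these falls was not tested.

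Among the receptor chains *Ifngr2* fell in the endothelium from 162 and 152 to 93.2 CPM and in mural cells from 49.9 and 38.0 to 14.9. *Ifnar1*, *Ifnar2*, *Ifngr1* and *Il10rb* were tested and were called in no class. In the endothelium *Ifnar1* had 16.4 and 14.3 against 21.3 and *Ifnar2* 82.9 and 78.1 against 68.7.

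The 21 interferon genes in the matrices had few UMIs in all, 217 and 111 in the controls and 112 in *Angpt1*ΔNC. *Ifnb1*, interferon-β, took 184, 84 and 106 of them, and most came from label 24, with 179 UMIs in 23 cells and 79 in 16 cells of the controls and 97 in 16 cells of *Angpt1*ΔNC. Single cells held up to 38, 21 and 23 of these UMIs. *Ifng*, interferon-γ, had 8, 5 and 3 UMIs and *Ifnk* 24, 19 and 0. At this depth no interferon gene could be tested in the endothelium.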

How the data were processed

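Reads were aligned and counted by the authors with Cell Ranger on mm10, and the matrices they deposited hold raw UMI counts for each gene in each called cell. The submitters' notes name Cell Ranger 2.1.1, while the matrix headers name 3.0.2. Cells were kept, and labelled, as in the authors' tables, which were made with Seurat 3.1.3 after doublet removal. The integrated expression values in these tables were not used. Gene positions came from GENCODE M21 on GRCm38, which held all 33 members.

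UMIs were summed per library over 5 classes of labels and tested with edgeR 4.0.16 in R 4.3.3 (TMM, filterByExpr, quasi-likelihood F-test, Benjamini-Hochberg over all genes tested). A label was fitted alone where each library held at least 30 cells. Counts, shares and exact intervals used Python 3.11.15 with numpy 2.4.6, pandas 2.3.3 and scipy 1.17.1. DESeq2 1.42.0, RLE factors, no filter, equal cells, equal label mix, male-typed cells, removal of cells with leukocyte RNA and leaving out each control were alternatives. The scripts were tested on simulated counts. A call needed an adjusted p under 0.05.

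The members and the pathway and marker lists were chosen with earlier results of these data known. Values per library were chosen from called members, from the 5 highest in the controls of each class, and from those outside both controls by at least 2-fold with at least 20 UMIs. Not all of these are printed. In mural cells *Ddx58*, *Dhx58*, *Irf7*, *Oasl2*, *Gbp7*, *Xaf1*, *Ifi27* and *Ifi44* were called and are named without values per library. The melanocyte, TM11 and single-label values were chosen after values were seen.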

Additional observations from a re-analysis of the deposited data

Results flagged for a closer look

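The genotype difference itself differed among the 5 classes for 13 members, by the edgeR joint test over all 15 sums. *Oasl1* (adjusted p = 0.000139) and *Ifih1* (0.000833) rose in the endothelium and fell in the TM stroma. For *Ifit2* (0.000196), *Rsad2* (0.0132), *Ifit1* (0.0196), *Ifit3b* (0.0495) and *Oas1a* (0.0382) the log2 fold change was 2.14, 2.03, 1.92, 1.15 and 5.08 in the endothelium. For *Gbp5* (0.00157) it was 1.10 there, and for *Gbp3* (0.0154) it was 1.27 there and 0.66 in the TM stroma.

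*Gbp2b* (0.000934) rose in all 5 classes, by 3.11 to 5.99 on the log2 scale. *Gbp2* (0.00181) fell in the endothelium, the TM stroma and the monocyte and dendritic cells. *Parp14* (0.00302) fell in the TM stroma, and *Ifi35* (0.0471) rose in mural cells. All of these p-values rest on 1 *Angpt1*ΔNC library.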

How the results depend on the processing

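No called value changed direction in any alternative made by class that gave one. Directions in the fits of single labels were not compared in this way. There *Ddx58*, called higher in mural cells, had a log2 fold change of -0.05 in label 19 alone. Of 53 called values, DESeq2 kept 33, RLE factors 53, a fit without the filter 53, equal cell numbers 39, equal label mix 35 and male-typed cells 38 of 51. Without cells with leukocyte RNA 45 of 48 were kept (no value for the monocyte and dendritic class), and 40 of 40 with *Ifit3* and *Ifit3b*, and *Gbp2* and *Gbp2b*, summed, an alternative added after the data were seen. The cause of the lost calls was not tested. Members called in the endothelium went from 23 to 14 by DESeq2 and 10 in EC2 alone, and in the TM stroma from 8 to 3 with equal numbers of cells. In the epithelium they went from 2 to 9 with no filter and to 1 with equal label mix, without cells with leukocyte RNA, or with pairs summed. In mural cells they went from 15 to 5 with equal label mix and to 2, 4 and 8 in labels 19, 20 and 21 alone, chosen after the data were seen. In monocyte and dendritic cells they went from 5 to 1 by DESeq2, 9 with RLE factors, 0 with equal numbers of cells, 0 in male-typed cells and 3 with pairs summed. The joint test called 29 in place of 13 members with no filter. Without either control the members' median log2 fold change was 0.71 to 1.00 in the endothelium, -0.18 to 0.19 in the TM stroma, -0.46 to 1.36 in the epithelium, 0.62 to 0.92 in mural cells and 0.12 to 0.51 in monocyte and dendritic cells. The median of all genes in mural cells was -0.24 with no filter and -0.14 in male-typed cells. No paired analysis was possible because there is 1 *Angpt1*ΔNC library and the replicate numbers were given in accession order. With 1 pool of that genotype, pool and genotype cannot be told apart.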
